A study of Homo sapiens with 6 samples.

Results

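KLF genes encode Krüppel-like factors, zinc-finger transcription factors that bind GC-rich and CACCC-type elements. The 10 KLF genes described here are KLF2, KLF3, KLF4, KLF6, KLF7, KLF10, KLF11, KLF12, KLF13 and KLF16, of 25420 genes in the tables, and their 3′ UTR entries were found by matching Entrez identifiers to these symbols. Reads were summed over the 23 entries of these genes. MOLM-13 cells, an established human acute myeloid leukaemia cell line, were exposed for 2 h to 10 µM C646, which inhibits the acetyltransferases CBP and p300, or to DMSO, the solvent control. Both groups, the DMSO controls included, received 100 µM 4-thiouridine (4sU) during the last 60 min, and there were 3 libraries per group. In SLAM-seq, 4sU that has entered new RNA is alkylated and then sequenced as C where the gene has T, so that T > C reads mark transcripts made during labelling. The counts include reads with a single conversion, sequencing errors can also give such reads, and the background without 4sU was not measured here. The comparison asks which transcripts are made less or more when CBP and p300 are inhibited for a short time, in a single cell line and with a single compound and dose.

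KLF proteins share 3 zinc fingers at the carboxy terminus and differ in the part that recruits partners. KLF3 and KLF12 carry a motif for the corepressor CtBP, KLF10, KLF11, KLF13 and KLF16 bind the corepressor SIN3, and KLF2, KLF4, KLF6 and KLF7 act mainly as activators, which can work with CBP and p300. In blood cells, KLF2 is known for keeping T cells and monocytes quiescent and KLF4 for monocyte differentiation. Several family members are immediate-early genes, with short-lived mRNAs that follow growth factors, TGF-beta or mechanical stress.

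A short mRNA life is often linked to AU-rich elements in the 3′ UTR, whose core is ATTTA in DNA letters, so 1 such site is shown as an example for each of 5 members whose labelling is described below. The 3′ UTR that took most reads of each gene was searched for ATTTA and for the longer TTATTTATT on the transcribed strand, in GRCh38. The capitals mark the match, and a TTATTTATT also holds an ATTTA.

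KLF2 (chr19:16327103-16327127, + strand): tgtgactggtATTTAttggacccag

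KLF4 (chr9:107485149-107485173, − strand): tccgatcaacATTTAtgacctaagt

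KLF6 (chr10:3778343-3778367, − strand): tgtttctcttATTTAtgccttgagg

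KLF11 (chr2:10054763-10054787, + strand): ctttgacattATTTAaacgagcatg

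KLF16 (chr19:1853692-1853720, − strand): gaatcctggcTTATTTATTttcctctgtc

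The most used 3′ UTR of KLF2 (chr19:16327032-16328662, + strand) held 4 ATTTA sites, that of KLF6 (chr10:3775996-3779590, − strand) 6, that of KLF11 (chr2:10052508-10054836, + strand) 6 and that of KLF7 (chr2:207074138-207081264, − strand) 20. The KLF10 3′ UTR, on chromosome 8, held 3, that of KLF3 (chr4:38697264-38701508, + strand) 9, that of KLF4 (chr9:107484852-107485750, − strand) 2 and that of KLF16 (chr19:1852399-1854458, − strand) 2. Long 3′ UTRs hold more sites by length alone. Among 3′ UTRs of 0.8 to 1.25 times the same length in genes tested in all reads, the median number was 3 for KLF2, 8 for KLF6, 5 for KLF11, 16 for KLF7, 3 for KLF10, 9 for KLF3, 1 for KLF4 and 4 for KLF16. The KLF genes with the highest T > C shares were near the median for their length in ATTTA sites. KLF16, which had the lowest T > C share of the measured members, was the only member with TTATTTATT, a match found in 9.21% of 3′ UTRs of like length.

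The promoter windows, from 250 bases before to 50 bases after each RefSeq start (GRCh38.p14), were searched for the cAMP response element TGACGTCA, the site of CREB, after which CBP is named, and for the GC box GGGCGG, a site of the SP and KLF families, on both strands. Windows of 8 members were given, those of KLF3 and KLF10 were not. Further motifs were counted in the same windows. The shorter TGACG, part of the cAMP response element, occurred 2 times in KLF4, 1 time in KLF13 and 2 times in KLF16. A window of KLF11 held it 2 times, and 24.6% of all windows hold it. KLF11 alone had the cAMP response element, 176 bases before one of its starts, shown with the match in capitals, while 1.85% of 35116 windows of that length hold it.

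KLF11 (chr2:10044036-10044061, + strand): ttccagccaTGACGTCAccccggtcc

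The GC box occurred 6 times in the window of KLF2, 4 times in that of KLF4, 2 times in that of KLF6, 3 times in that of KLF13 and 7 times in that of KLF16. The windows of KLF11 held it 2 and 7 times, 1 of the 4 windows of KLF7 held it 4 times and 1 of the 4 windows of KLF12 held it 5 times, with none in their other windows. Of all windows, 45.0% hold at least 1. These matches describe letters in a window and do not show a bound factor.

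The libraries held 7252597 to 10225448 reads on 3′ UTRs, and T > C reads made up 8.74% to 8.86% of them in DMSO and 6.34% to 6.71% in C646. The 10 markers of a myeloid leukaemia cell each exceeded 1 CPM in DMSO, with a summed level of 3374 to 3696 CPM in DMSO and 3576 to 3812 CPM in C646. Most of that sum was LYZ (mean 2802 CPM in DMSO and 3029 CPM in C646), so it says little about the other markers. Of the T cell markers, CD4, which monocytes also express, and CD3D exceeded 1 CPM and CD3E was at 0, while no B cell, erythroid or epithelial marker exceeded 1 CPM in DMSO. Reads on 3′ UTRs made up 49.7% to 51.6% of the filtered reads in DMSO and 56.3% to 62.0% in C646, and the part of this difference in the results was tested only by scaling to the filtered reads. Levels are in CPM, scaled to the TMM-scaled total of reads on 3′ UTRs. The 3′ end libraries give about 1 read per transcript whatever its length. In bulk RNA, fewer cells with a transcript and less of it per cell cannot be told apart.

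In DMSO, the T > C shares of most measured KLF transcripts were high. The T > C share is the percentage of a gene's reads with a T > C conversion. Its median was 11.6% over the 8607 genes with a mean of at least 50 reads over the DMSO libraries. Of the 10 members, 8 lay above it, against 50% of those genes, by definition of the median. KLF2, KLF3 and KLF4 are among the 8 but had too few reads to belong to the 8607 genes, and the other 5 belong to them. KLF10, the TGF-beta-inducible early gene TIEG1, had 88.8%, 82.3% and 89.1% T > C reads in DMSO replicates 1, 2 and 3 (mean 86.7% ± 3.85, SD, n = 3). Only 4 of the 8607 genes had a higher mean share, and all 3 libraries were close together. KLF11, the related TIEG2, had 65.6%, 70.9% and 82.6% (73.0% ± 8.67, SD, n = 3), above 99.5% of genes. KLF6, an immediate-early gene first described in tissue injury, had 70.9%, 66.7% and 73.5% (70.4% ± 3.47, SD, n = 3), above 99.3% of genes.

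KLF2 rested on 56 DMSO reads in all, of which 68.2%, 50% and 56.2% were T > C reads in replicates 1, 2 and 3 (58.1% ± 9.24, SD, n = 3). KLF7, widely expressed and known for axon growth, had 40.6%, 42.7% and 43.4% (42.2% ± 1.497, SD, n = 3). KLF16, a dopamine receptor regulating factor in neurons, had 17.8%, 27.4% and 19.2% (21.5% ± 5.18, SD, n = 3), above 78.6% of genes and the lowest of the members with more than 10 DMSO reads. KLF16 was also the most abundant member in DMSO, so the level and the T > C share of the members did not run in the same order.

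KLF4 and KLF3 had few reads. KLF4, one of the reprogramming factors, gave 8, 0 and 9 reads in DMSO replicates 1, 2 and 3, of which 8 of 8 and 6 of 9 were T > C reads (pooled 82.4%, exact 95% binomial interval 56.6% to 96.2%). KLF3, a CtBP-dependent repressor of CACCC elements, had 41.7%, 54.5% and 41.2% T > C reads over 52 DMSO reads (45.8% ± 7.58, SD, n = 3). In the order KLF10, KLF4, KLF11, KLF6, KLF2, KLF3, KLF7 and KLF16, each gene overlapped the next over its libraries except KLF7 and KLF16, whose libraries did not overlap. The order of the genes above KLF16 is thus not resolved step by step. KLF12, the AP-2 repressor, had 1 DMSO read and KLF13, a regulator of CCL5 in T cells, 2, with no T > C read, and a share could not be measured for them.

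**Figure D1:**
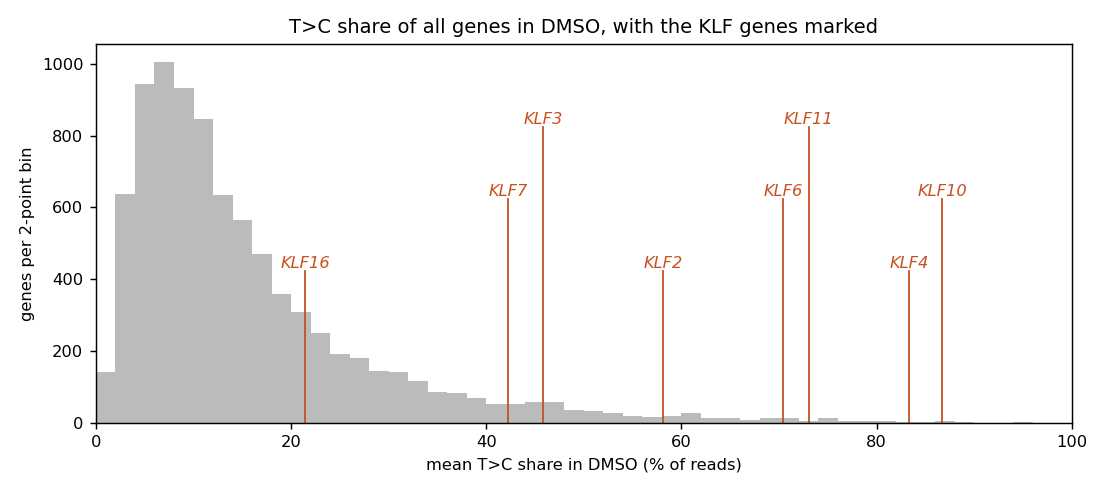
Number of genes (vertical axis, per bin of 2 percentage points) by the mean T > C share in the 3 DMSO libraries (horizontal axis, % of reads). The 8607 genes have a mean of at least 50 reads over the DMSO libraries, and orange lines mark the KLF genes. KLF10 lies at 86.7% and KLF16 at 21.5%, right of the median gene at 11.6%.

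C646 moved members of the family in opposite directions. Of the 10 members, 6 had enough T > C reads to be tested, and KLF6, KLF10, KLF11 and KLF16 fell, KLF2 rose and KLF7 passed in neither direction. A call needed a Benjamini-Hochberg adjusted p-value no higher than 0.01 over 7722 genes, by edgeR's quasi-likelihood test, and a log2 change of 1 or more in size. Among all tested genes 33.0% were called lower and 2.97% higher. With TMM on the T > C reads themselves, 596 genes were lower and 717 higher in place of 2548 and 229, so the balance of falls and rises depends on the scaling. The log2 change of the median gene in T > C reads was −0.83, and that of the 6 tested members −1.04. The median gene moved to 0.011 under that scaling. For that reason, differences from the median gene are given beside the T > C change of each tested member, but not of the other genes. Neither the labels nor the methods say that replicates came from separate cultures, and p-values then measure the spread between these libraries.

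**Figure D2:**
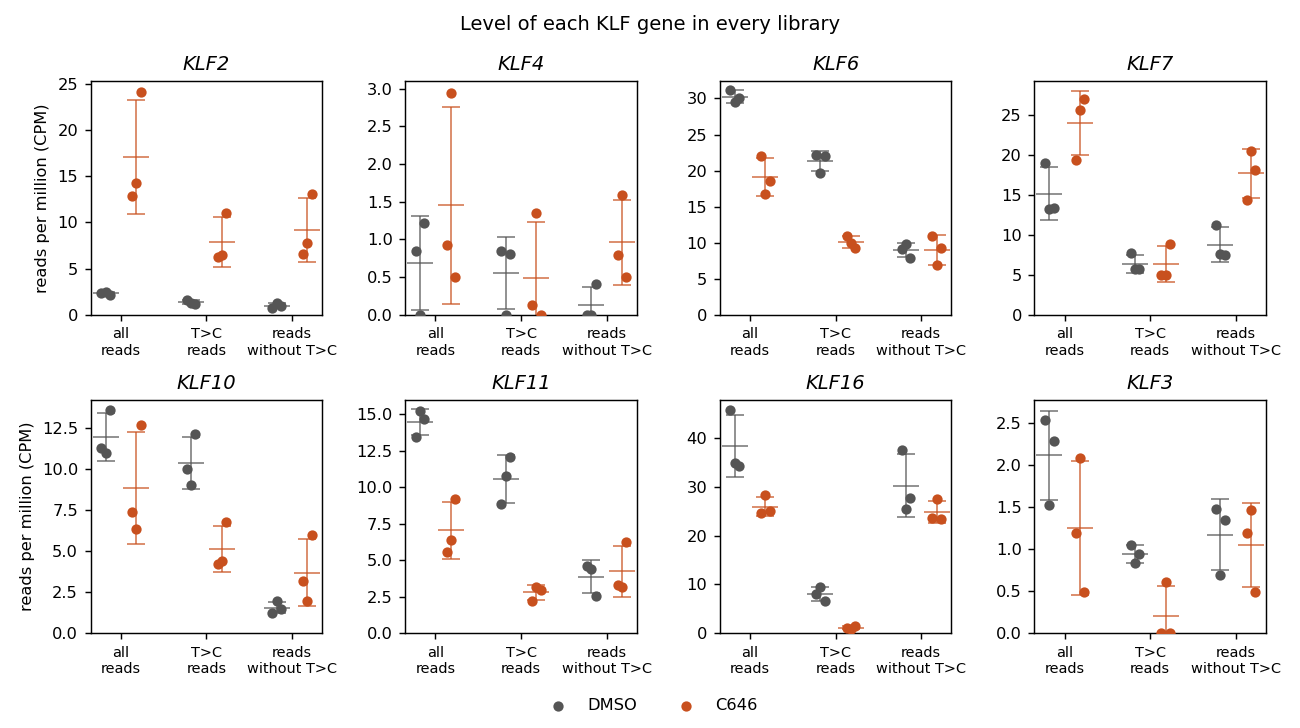
Level in CPM (vertical axes, a scale for each gene) of all reads, T > C reads and reads without T > C of 8 KLF genes, with a point per library, the mean as a long tick and the SD as a bar, for 3 DMSO (grey) and 3 C646 (orange) libraries. KLF2 in C646 lies at 12.8 to 24.1 CPM in all reads, above all DMSO libraries, while the T > C reads of KLF6, KLF10, KLF11 and KLF16 lie below all DMSO libraries.

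KLF2 rose in new and in total RNA. The T > C reads of KLF2 stood at 1.58, 1.25 and 1.21 CPM in DMSO replicates 1, 2 and 3 and at 6.22, 6.49 and 11.01 CPM in C646 replicates 1, 2 and 3. The lowest C646 library was above the highest DMSO library, as in 6.46% of tested genes, and C646 replicate 3 stood apart at the top. The rise was 5.80-fold (log2 2.54 ± 0.38, SE, adjusted p = 2.25e-06, edgeR) and 3.37 log2 units above the median gene. KLF2 passed the filter on low T > C counts only through the C646 libraries, as KLF16 did only through the DMSO libraries, and both calls held when all genes were kept, at log2 2.54 (adjusted p = 1.60e-09) for KLF2 and log2 −2.80 (adjusted p = 6.34e-11) for KLF16 (edgeR). In all reads, KLF2 had 2.32, 2.50 and 2.15 CPM in DMSO and 12.8, 14.2 and 24.1 CPM in C646, a 7.34-fold rise (log2 2.88 ± 0.31, SE, adjusted p = 2.26e-05, edgeR). KLF2 was the only member called higher in all reads, among 7 tested, where 5.89% of 10851 tested genes were called higher.

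The reads of KLF2 without a T > C conversion, from RNA made before the labelling or made during it without a read conversion, also increased in mean from 0.98 ± 0.26 to 9.14 ± 3.47 CPM (SD, n = 3 each). Every C646 library was above every DMSO library in these reads, as for 29.9% of the genes tested in all reads. The T > C share of KLF2 was 48.5%, 45.7% and 45.7% in C646 replicates 1, 2 and 3, against the 58.1% mean of DMSO. The change of the T > C odds, T > C reads over other reads within a gene, did not pass for KLF2 (log2 −0.70 ± 0.57, SE, adjusted p = 0.286, edgeR).

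KLF6 fell in new RNA. Its T > C reads were at 22.1, 19.7 and 22.1 CPM in DMSO and at 10.98, 9.93 and 9.32 CPM in C646, with no overlap between the groups. Groups apart in this direction were found in 55.8% of tested genes. The fall was 2.12-fold (log2 −1.08 ± 0.21, SE, adjusted p = 7.06e-05, edgeR), 0.25 log2 units below the median gene, and the call was lost at −0.25 under TMM scaling of the T > C reads themselves and at −0.88 under scaling by all filtered reads. In all reads KLF6 had 31.2, 29.5 and 30.0 CPM in DMSO and 21.95, 16.8 and 18.6 CPM in C646. That log2 change of −0.67 ± 0.17 (SE, adjusted p = 0.01004, edgeR) was short of a log2 change of 1. The reads of KLF6 without T > C were at 8.95 ± 0.95 CPM in DMSO and 9.02 ± 2.06 CPM in C646 (SD, n = 3 each), and the groups overlapped.

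KLF7 was called in neither new nor total RNA. Its T > C reads were at 7.69, 5.68 and 5.79 CPM in DMSO and at 5.03, 5.02 and 8.93 CPM in C646, and the groups overlapped. The log2 change was −0.01 with a 95% interval of −0.60 to 0.58 (adjusted p = 0.983, edgeR), 0.82 log2 units above the median gene, and became 0.82 under TMM scaling of the T > C reads. In all reads, KLF7 had 19.0, 13.3 and 13.3 CPM in DMSO and 19.4, 25.6 and 27.1 CPM in C646. Every C646 library was above every DMSO library, as for 24.5% of tested genes, with a log2 change of 0.66 ± 0.21 (SE, adjusted p = 0.0274, edgeR) that did not pass. The reads of KLF7 without T > C were at 8.81 ± 2.13 CPM in DMSO and 17.7 ± 3.11 CPM in C646 (SD, n = 3 each), again without overlap.

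KLF4 was too low for a test. It had 8, 0 and 9 reads in DMSO and 7, 24 and 5 in C646, with 8, 0 and 6 T > C reads against 1, 11 and 0. The groups overlapped in all reads and in T > C reads. The T > C share was 100% and 66.7% in the DMSO libraries with reads and 14.3%, 45.8% and 0% in C646, and the reads without T > C were at 0, 0 and 0.40 CPM in DMSO and 0.79, 1.59 and 0.50 CPM in C646. In these last measures the groups did not overlap, on 17 reads in DMSO and 36 in C646 in all. Every C646 library was lower in share in 64.5% of tested genes, and higher in reads without T > C in 29.9%.

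The 3 tested SIN3-binding members, KLF10, KLF11 and KLF16, were called lower in T > C reads, where 33.0% of all tested genes were, and the call of KLF10 was lost in several alternatives given below. KLF16 had 8.12, 9.57 and 6.60 CPM of T > C reads in DMSO and 1.06, 0.86 and 1.49 CPM in C646. The groups were far apart, on 195 T > C reads in DMSO and 30 in C646. The fall was 6.95-fold (log2 −2.80 ± 0.38, SE, adjusted p = 4.75e-07, edgeR), 1.97 log2 units below the median gene, and held under each scaling, at −1.97 under TMM scaling of the T > C reads. In all reads KLF16 had 45.6, 34.9 and 34.3 CPM in DMSO and 24.6, 28.3 and 25 CPM in C646, a log2 change of −0.56 ± 0.17 (SE, adjusted p = 0.0214, edgeR) that did not pass. Its reads without T > C overlapped between the groups, at 30.2 ± 6.44 and 24.8 ± 2.27 CPM (SD, n = 3 each).

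KLF11 fell in new and in total RNA. Its T > C reads were at 8.85, 10.8 and 12.1 CPM in DMSO and at 2.25, 3.19 and 2.98 CPM in C646. The groups did not overlap, with a 3.74-fold fall (log2 −1.90 ± 0.30, SE, adjusted p = 5.06e-06, edgeR), 1.07 log2 units below the median gene and −1.07 under TMM scaling of the T > C reads. In all reads KLF11 had 13.5, 15.2 and 14.7 CPM in DMSO and 5.55, 6.37 and 9.23 CPM in C646, a 2.03-fold fall (log2 −1.02 ± 0.24, SE, adjusted p = 0.00599, edgeR). KLF11 was the only member called lower in all reads, where 1.88% of tested genes were. This call is close to both thresholds, and it was lost without DMSO replicate 1 (−1.07, adjusted p = 0.0184), DMSO replicate 2 (−0.99), DMSO replicate 3 (−1.01, adjusted p = 0.0207), C646 replicate 1 (−0.87) or C646 replicate 2 (−0.95), and with scaling by all filtered reads (−0.81).

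KLF10 fell in new RNA at the edge of the call. Its T > C reads were at 10.0, 9.01 and 12.1 CPM in DMSO and at 4.23, 4.41 and 6.75 CPM in C646, with no overlap. The fall was 2.00-fold (log2 −1.001 ± 0.27, SE, adjusted p = 0.00288, edgeR), only 0.17 log2 units below the median gene. The call was lost without DMSO replicate 1 (−1.03, adjusted p = 0.0118), DMSO replicate 3 (−0.87), C646 replicate 1 (−0.87) or C646 replicate 2 (−0.90), and under TMM scaling of the T > C reads (−0.18), scaling by all filtered reads (−0.79) and in the most used 3′ UTR alone (−0.99). In all reads KLF10 had 11.3, 10.95 and 13.6 CPM in DMSO and 7.41, 6.37 and 12.7 CPM in C646, overlapping groups with a log2 change of −0.42 ± 0.27 (SE, adjusted p = 0.251, edgeR). C646 replicate 3 was the highest C646 library in all reads for KLF2, KLF7, KLF10 and KLF11.

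KLF13 could not be followed. It had 11 reads over the 6 libraries, of which 10 were multimapped and lay in a 30-base entry that overlaps no UTR of the gene in the GENCODE annotation, and only 1 was in its long 3′ UTR (chr15:31372300-31377899, + strand). The annotation lists the gene a second time on an alternative contig of chromosome 15, with 0 reads. Its level was therefore uncertain rather than absent.

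Of the CtBP-binding members, KLF3 had 10, 6 and 7 T > C reads in DMSO and 0, 5 and 0 in C646, below the filter of the test. Both C646 libraries at 0 held 9 and 5 reads of KLF3 in all, which allows T > C shares of up to 33.6% and 52.2% (exact 95% binomial intervals). In all reads KLF3 was at 2.53, 1.52 and 2.29 CPM in DMSO and 1.19, 2.08 and 0.50 CPM in C646. These groups overlapped, with a log2 change of −0.78 and a 95% interval of −1.86 to 0.30 (adjusted p = 0.298, edgeR). KLF12 had 1 read in DMSO and 2 in C646 on a 3′ UTR of 9478 bases (chr13:73686012-73695489, − strand), and no change was detectable.

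**Figure D3:**
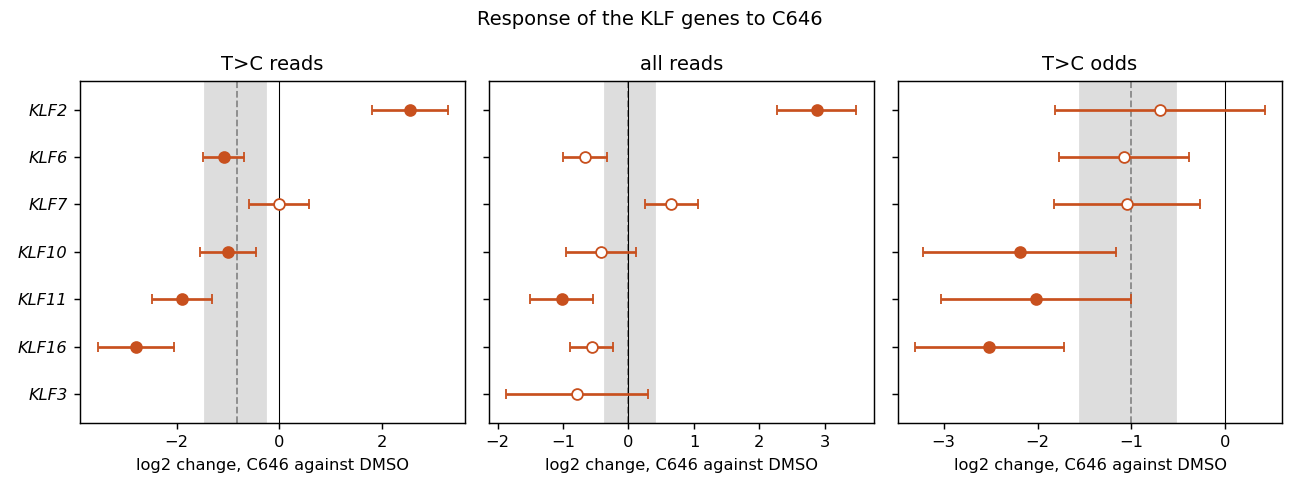
Log2 change of C646 against DMSO (horizontal axes) of each tested KLF gene in T > C reads, all reads and T > C odds, with 95% intervals, filled where the gene was called and open where it was not. The dashed line and grey band give the median and quartiles of all tested genes, and KLF16 at −2.80 and KLF2 at 2.54 lie outside the band of the T > C reads on either side.

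The T > C share of a gene does not depend on scaling between libraries, and it sets the T > C reads of a member against its own other reads. Like the T > C reads and odds, it does depend on how well new RNA was labelled. T > C reads carried 2.00 to 2.11 conversions on average in the DMSO libraries and 1.87 to 1.91 in the C646 libraries. Whether labelling was weaker in C646 was not tested. In all 6 tested members every C646 library had a lower share than every DMSO library, as did 64.5% of tested genes. The T > C odds of KLF10, KLF11 and KLF16 were called lower, against 38.3% of 7722 tested genes, and no member was called higher or had every C646 library above every DMSO library in share, against 0.790% and 2.18%. The shares of KLF16 in C646 were 4.30%, 3.03% and 5.95% (4.43% ± 1.47, SD, n = 3), and its odds fell with a log2 change of −2.51 ± 0.40 (SE, adjusted p = 1.95e-05, edgeR). KLF16 thereby went from above 78.6% of genes in DMSO to above 36.2% in C646.

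The shares of KLF10 in C646 were 57.1%, 69.2% and 53.1%, with a log2 change of the odds of −2.19 ± 0.52 (SE, adjusted p = 0.00112, edgeR). The shares of KLF11 were 40.5%, 50% and 32.3%, with a log2 change of the odds of −2.02 ± 0.52 (SE, adjusted p = 0.00203, edgeR). Both calls depended on single libraries, for KLF10 on DMSO replicates 1 (−2.06, adjusted p = 0.0127) and 3 (−2.04), and for KLF11 on DMSO replicates 2 (−2.11) and 3 (−1.67) and C646 replicate 3 (−1.71). The odds of KLF6 (log2 −1.08 ± 0.35, SE, adjusted p = 0.0116, edgeR) and KLF7 (log2 −1.05 ± 0.40, SE, adjusted p = 0.0256, edgeR) did not pass, and the median of all tested genes was −1.004. Without C646 replicate 2 the odds of KLF6 passed (−1.24). KLF6 and KLF7 were thus close to the median gene in this measure. The reads of KLF10 without T > C were at 3.70 ± 2.05 CPM in C646 and 1.56 ± 0.35 CPM in DMSO (SD, n = 3 each), with the lowest C646 library barely above the highest DMSO library. Of the 7 members tested in all reads, KLF2, KLF7 and KLF10 had these reads above DMSO in every C646 library, as did 29.9% of genes, and none had them below, as did 17.0%.

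**Figure D4:**
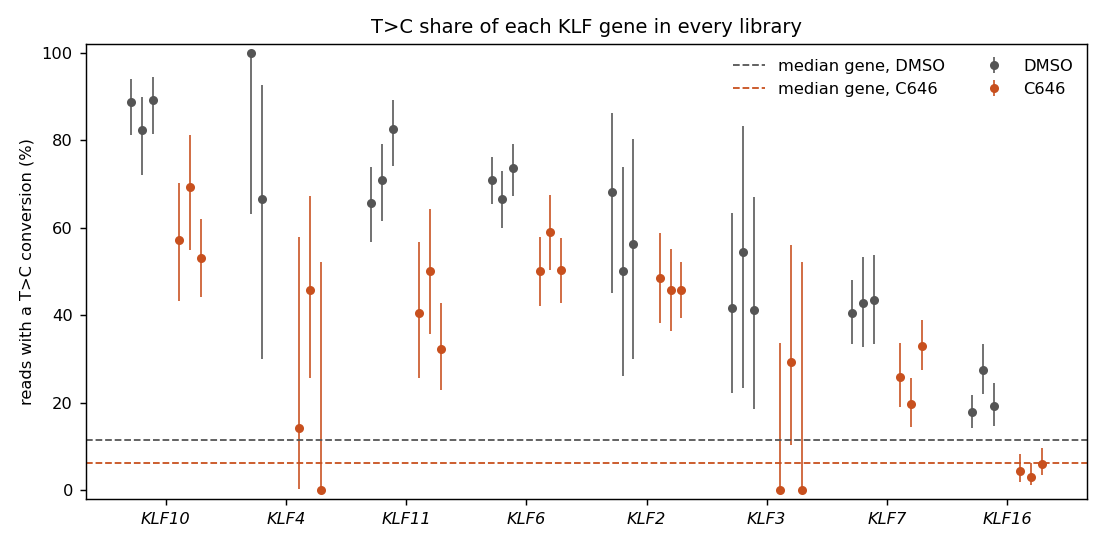
T > C share (vertical axis, % of reads) of 8 KLF genes in each DMSO (grey) and C646 (orange) library with exact 95% binomial intervals, which cover counting error only, and dashed lines at the median gene of each group. The KLF16 libraries in C646 lie at 3.03% to 5.95% and those of KLF10 at 53.1% to 69.2%, and the wide bars of KLF4 and KLF3 rest on few reads.

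Of 8 other KLF genes, 7 were in the tables and 2 were tested in T > C reads, and KLF9 was called lower, where 33.0% of all tested genes were. KLF9, a glucocorticoid-inducible repressor, had 8.33, 7.90 and 9.83 CPM of T > C reads in DMSO and 1.06, 1.10 and 2.58 CPM in C646 (log2 −2.40 ± 0.36, SE, adjusted p = 3.03e-06, edgeR), and it was called lower in all reads too (log2 −1.35). Of 9 SP genes, 4 were tested and 2 fell, against the same 33.0%, the general activator SP1 (log2 −1.42 ± 0.25, SE, adjusted p = 3.26e-05, edgeR) and its relative SP2 (log2 −1.49 ± 0.44, SE, adjusted p = 0.00515, edgeR). None of the 4 was called in all reads. KLF9 and SP2 passed the filter on low T > C counts only through the DMSO libraries, where they were high.

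Among 11 tested corepressors and coactivators of KLF proteins, 3 fell in T > C reads and none rose, against 33.0% of all tested genes called lower, with a median log2 change of −0.64 against −0.83. SIN3A, the scaffold of the SIN3 histone deacetylase complex, went from 26.9, 26.2 and 23.3 CPM of T > C reads in DMSO to 4.63, 3.55 and 3.08 CPM in C646 (log2 −2.77 ± 0.24, SE, adjusted p = 9.69e-11, edgeR). The corepressors CTBP1 (log2 −1.28) and CTBP2 (log2 −1.26) also fell. In all reads the list had 1 call among 12 tested genes, against 5.89% of all tested genes called higher. It was SAP30, a subunit of the SIN3 complex (log2 2.96), named after its value was seen. SAP30 passed the filter on low counts only through the C646 libraries, where it was high, on 30 reads in DMSO and 260 in C646. The genes of the inhibited enzymes were not called, with log2 changes in T > C reads of −0.12 ± 0.26 for CREBBP and −0.79 ± 0.20 (SE) for EP300.

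KLF2 and KLF4 are induced through the kinase ERK5 and MEF2 factors, and KLF10 and KLF11 through TGF-beta. Of the ERK5 and MEF2 list, 3 of 6 tested genes fell, against 33.0% of all tested genes, namely the kinase MAP3K3 (log2 −2.38 ± 0.39, SE, adjusted p = 1.06e-05, edgeR) and the transcription factors MEF2D (log2 −1.90) and MEF2C (log2 −1.63). Of the TGF-beta list, 4 of 8 tested genes fell, against the same 33.0%, namely the signal transducers SMAD3 (log2 −2.29), SMAD4 (log2 −1.41) and SMAD2 (log2 −1.03) and the receptor TGFBR2 (log2 −1.55). The median log2 changes of both lists were −1.59 and −1.06, and none of their genes was called in all reads. MAP3K3 and SMAD3 passed the filter on low T > C counts only through the DMSO libraries, where they were high.

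Of 8 tested proteins that bind AU-rich elements, 3 fell and none rose in T > C reads, against 33.0% of all tested genes called lower, with a median log2 change of −0.30 against −0.83. ZFP36L2, which promotes decay of its targets, had 308, 263 and 284 CPM of T > C reads in DMSO and 63.1, 71.7 and 87.6 CPM in C646 (log2 −1.94 ± 0.14, SE, adjusted p = 4.59e-12, edgeR). The stabilising ELAVL1 (log2 −1.73) and the decay factor KHSRP (log2 −1.19) fell as well. Of 5 tested ubiquitin ligases that act on KLF proteins, 2 fell, again against 33.0%, SMURF1 (log2 −3.46 ± 0.68, SE, adjusted p = 0.000108, edgeR) and FBXW7 (log2 −2.21 ± 0.26, SE, adjusted p = 4.76e-08, edgeR), and SMURF1 was also called lower in all reads (log2 −1.05). SMURF1 passed the filter on low T > C counts only through the DMSO libraries, where it was high, on 68 T > C reads in DMSO and 6 in C646.

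Of 10 genes known as KLF targets, 4 were tested in T > C reads, of which 2 fell, against 33.0% of all tested genes, and 1 rose, against 2.97%. THBD, the thrombomodulin gene, which KLF2 activates in endothelium, had 11.8, 7.07 and 11.2 CPM of T > C reads in DMSO and 0.53, 0.74 and 0.79 CPM in C646 (log2 −3.83 ± 0.39, SE, adjusted p = 3.58e-09, edgeR), and it was also called lower in all reads (log2 −1.37). THBD passed the filter on low T > C counts only through the DMSO libraries, where it was high, and had 18 T > C reads in C646. CDKN1A, the cell cycle inhibitor p21, which KLF4 and KLF6 activate, fell at the edge of the call (log2 −1.002 ± 0.15, SE, adjusted p = 3.09e-06, edgeR). COL1A1, a collagen gene that KLF factors regulate, had 0.95, 0.14 and 0.13 CPM of T > C reads in DMSO and 3.57, 2.94 and 2.68 CPM in C646. It passed the filter on low counts only through the C646 libraries, where it was high, so that its call as higher (log2 2.75 ± 0.62, SE) rests on 11 T > C reads in DMSO and on that filter. COL1A1 was also called higher in all reads (log2 2.02), against 5.89% of all tested genes. There, too, it passed the filter only through the C646 libraries. TXNIP, a thioredoxin inhibitor and the remaining tested gene, was not called (log2 −0.23, adjusted p = 0.168, edgeR).

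**Figure D5:**
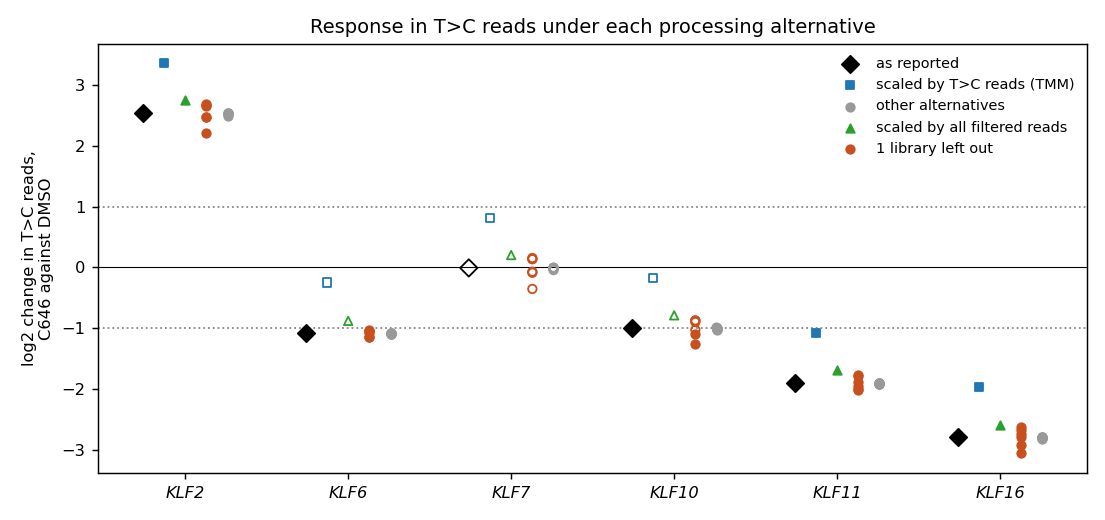
Log2 change in T > C reads of C646 against DMSO (vertical axis) of the 6 tested KLF genes under each processing alternative, filled where the gene was called, with dotted lines at −1 and 1. Scaling by T > C reads places KLF6 at −0.25 and KLF10 at −0.18, while KLF2, KLF11 and KLF16 were called wherever they were tested.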

How the data were processed

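SLAM-seq libraries of MOLM-13 cells were prepared with a 3′ end kit and processed by the authors with SLAM-Dunk v0.4.1 on GRCh38. For each 3′ UTR entry, the authors deposited raw counts of all reads, T > C reads, conversions and multimapped reads, a coverage signal summed over T positions, and reads as CPM of all filtered reads. In C646 replicate 3 every T content is 0, and the other tables were used for it. T > C reads carried 1.87 to 2.11 conversions on average, below 2 in each C646 library, so reads with 1 conversion are counted, whereas the paper's methods describe a minimum of 2. No library without 4sU was analysed here.

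Counts were summed per gene, and 25310 of 25420 identifiers matched a symbol. Differential expression was tested with edgeR 4.0.16 in R 4.3.3 (filterByExpr with a minimum count of 10, glmQLFit, glmQLFTest, Benjamini-Hochberg adjustment), with TMM-scaled totals of all reads as library sizes. The model of T > C odds had a factor for the library and an interaction of T > C with treatment. Calls required an adjusted p-value up to 0.01 with a log2 change of 1 or more in size. The SE is the log2 change over the square root of F. The fits were tested on simulated data in which few genes changed and most did not. A shift of most genes, as seen in the T > C reads, was not simulated. Shares carry exact binomial intervals, for counting error only. DESeq2 1.42.0 was an alternative, with other scalings, filters, single 3′ UTRs, a block for the replicate and single libraries left out. Summaries and plots used scipy 1.17.1, matplotlib 3.10.9, numpy 2.4.6, pandas 2.3.3 and Python 3.11.15. The members and the gene lists were chosen with earlier results of these data known. All 10 members are named, with up to 4 genes per list called in T > C reads with the largest changes, CREBBP and EP300. SAP30 and TXNIP are outside this rule and were chosen after their values were seen. A result for 1 further gene, left out of its list, is not reported here. Markers of blood and epithelial cells were used only to check the cell line. Promoters came from RefSeq (GRCh38.p14).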

Additional observations from a re-analysis of the deposited data

How the results depend on the processing

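Among the tested members, 4 were lower in T > C reads as reported, 2 under TMM scaling of the T > C reads themselves and 2 under scaling by all filtered reads, and between 3 and 4 with each library left out. The 1 higher member, KLF2, was removed by a filter on a library mean of 50 T > C reads, which left 0, and stayed at 1 elsewhere. In all reads, 1 member was lower as reported, 0 with scaling by all filtered reads, and 0 to 1 with each library left out. Lower T > C odds were called in 3 members, and in 1 to 4 with each library left out. In each alternative tried for the DMSO T > C share, 8 members lay above the median gene. KLF7 changed sign in T > C reads, to 0.82 under TMM scaling of the T > C reads and 0.20 under all filtered reads, and lay between −0.35 and 0.16 when single libraries were omitted. Over all genes, 2548 were lower and 229 higher in T > C reads, against 596 and 717 under TMM scaling of the T > C reads and 1038 and 125 with the filter on a mean of 50. In all reads, 204 were lower and 639 higher, against 90 and 1014 with all filtered reads, 120 lower without DMSO replicate 2 and 321 without C646 replicate 1. Same-numbered DMSO and C646 libraries correlated at 0.030 to 0.065 in T > C reads and −0.0014 to 0.231 in all reads (deviations from group means). Differently numbered libraries correlated at −0.050 to 0.016 in T > C reads and −0.221 to 0.148 in all reads. In T > C reads every same-numbered pair was thus above every other pair. Neither the labels nor the methods give same-numbered libraries as pairs, and the main fits did not take them as pairs. With the replicate block, 4 members were lower and 1 higher in T > C reads, no call of a member changed, and 2586 genes were lower and 226 higher. The cause of these changes was not tested. Depth leaves KLF4, KLF12, KLF13 and, in T > C reads, KLF3 without a test.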
